A study of Mus musculus with 57 samples.

Results

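The 39 genes described here encode the machinery with which an adipocyte makes, takes up, stores and releases fat, together with the hormones it secretes and regulators of this programme. They were chosen by gene name from 56860 genes in the count and TPM (transcripts, scaled to the same total in each library) tables. The rule used no values, but earlier results of these data were known when the genes were chosen. By role they comprise 4 secreted adipokines, 4 transcription regulators, 6 genes of fatty acid delivery, uptake and activation, 7 of glucose entry and fatty acid synthesis, 9 of glycerol supply and triglyceride assembly, and 9 of the lipid droplet coat and lipolysis. The tissue in which they are central is interscapular brown adipose tissue (iBAT), and the question put to the data is whether the loss of *Hoxa5*, a homeobox transcription factor, changes them there or in other tissues that express it.

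RNA of wild-type (wt) and *Hoxa5*-/- embryos in the 129/Sv background was sequenced in 57 libraries. There were 5 libraries of each genotype from iBAT at E18.5 (embryonic day). For somites at E10.5 the numbers were 4 for wt and 3 for *Hoxa5*-/-. Somites at E12.5, lung at E12.5 and E15.5, trachea at E15.5 and diaphragm at E15.5 had 4 of each. Somites are trunk segments from cervical to upper thoracic levels, freed of neural tube, forelimbs and thoracic organs, so they hold several tissues. The null allele carries a neomycin cassette in the homeobox in all cells of the embryo. Somites and iBAT were sequenced at 1 centre as paired-end reads of 150 bases and the other tissues at another as single-end reads of 100 bases, so levels set across these sets cannot be told apart from a difference between centres. Total counts per library lay between 18369905 and 72991481, and in iBAT between 18369905 and 22475232. The study's methods call the libraries of most contexts biological replicates. Its legend for the wt levels counts 4 wt embryos for respiratory tissues and somites and 5 for iBAT, as many as the wt libraries of each context. The labels do not name the embryo behind each library. *Hoxa5* itself (chr6:52178734-52181567, GRCm39, minus strand) was lower in *Hoxa5*-/- libraries of all 7 tissue and stage contexts, from -0.92 on the log2 scale in somites at E10.5 to -1.94 in iBAT, without overlap between genotypes, and reads on its exons were still counted from the null allele.

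Fat enters an adipocyte as fatty acids cut from blood lipoproteins by lipoprotein lipase, or is made inside the cell from glucose through citrate and malonyl-CoA. Fatty acids are joined to glycerol 3-phosphate step by step into triglyceride, which collects in droplets coated by perilipins. Lipases release the fatty acids again, and in brown fat they fuel heat production in mitochondria through the uncoupling protein UCP1.

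In wt iBAT every one of the 39 genes was expressed, and most were abundant. Their mean levels ran from 7.21 TPM for *Lep*, the satiety hormone leptin, to 6258 TPM for *Fabp4*, a fatty acid carrier of the adipocyte cytosol, and 30 of 39 reached 100 TPM. *Fabp4* ranked 14th among all genes and *Gpd1*, which supplies glycerol 3-phosphate, ranked 18th with 4999 TPM. The other members above 1000 TPM were *G0s2*, an inhibitor of adipose triglyceride lipase, with 2778 TPM, *Pnpla2*, that lipase itself, with 1831 TPM, *Adipoq* (adiponectin) with 1807 TPM, *Cd36*, a fatty acid transporter, with 1445 TPM, and *Cfd* (adipsin) with 1429 TPM. At the other end stood *Acaca*, which makes malonyl-CoA, with 15.52 TPM, and *Elovl6*, which elongates fatty acids, with 17.2 TPM. The brown fat label was borne out by *Ucp1*, at 2320 to 6969 TPM in the 10 iBAT libraries and at most 0.522 TPM in any library of the other contexts.

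Together the 39 genes took 2.88% ± 0.165 (SD, n = 5) of all TPM in wt iBAT and 2.77% ± 0.158 (SD, n = 5) in *Hoxa5*-/- iBAT. In the other 12 groups the mean share lay between 0.0923% in *Hoxa5*-/- somites at E12.5 and 0.137% in wt lung at E15.5. The libraries of both iBAT genotypes overlapped with each other, from 2.63% to 3.04% in wt and from 2.65% to 3.04% in *Hoxa5*-/-, and lay far above the rest. In bulk tissue, fewer cells of a type and less RNA per cell cannot be told apart.

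**Figure D1:**
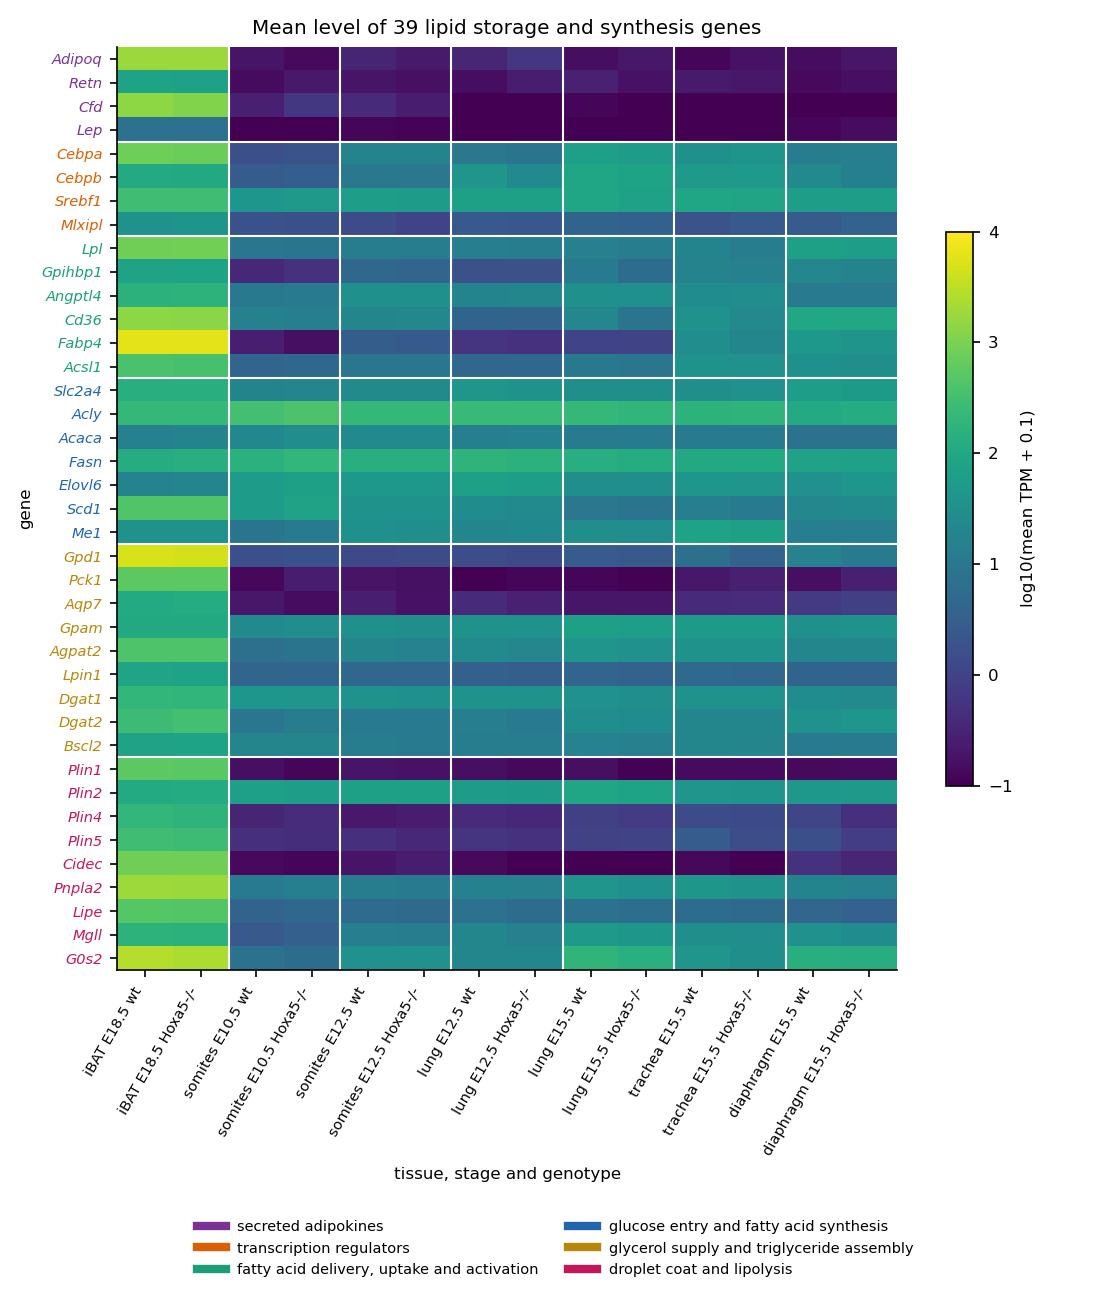
Heat map of the mean level of each of the 39 genes, as log10(mean TPM + 0.1), in the 14 groups of tissue, stage and genotype, with gene names coloured by role. Both iBAT columns are bright for nearly all genes, *Acly* and *Fasn* are bright in every column, and the wt and *Hoxa5*-/- columns of a context look alike.

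Of the 39 genes, 34 had their highest wt mean in iBAT. The 5 others belong to fatty acid synthesis. *Acly*, which makes cytosolic acetyl-CoA, was highest in somites at E10.5 with 324 TPM against 216 TPM in iBAT. *Fasn*, the fatty acid synthase, and *Elovl6* were highest in lung at E12.5, with 179 and 68.1 TPM, *Acaca* in somites at E12.5 with 25 TPM, and *Me1*, a source of NADPH, in trachea with 80.4 TPM. These orders are of levels per length and cross sequencing centres for lung and trachea.

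By role, all 4 transcription regulators reached at least 1 TPM in every wt group. *Cebpb* had 111 TPM in wt iBAT and 85 TPM in lung at E15.5, and *Srebf1*, which switches on fatty acid synthesis, had 294 TPM in iBAT and 42.4 to 85.3 TPM in the other wt groups. *Cebpa* stood at 801 TPM in iBAT and at most 67.4 TPM elsewhere, in lung at E15.5, and *Mlxipl* at 36.7 and at most 3.91 TPM. Among the genes of triglyceride assembly, *Gpam*, which starts the chain on glycerol 3-phosphate, differed least from other tissues, with 108 TPM in iBAT and 70.9 TPM in lung at E15.5. *Dgat1* had 201 TPM against at most 42.4 TPM, *Agpat2* 411 against at most 40.2 TPM, and *Lpin1*, a phosphatidate phosphatase, 83.1 against at most 5.13 TPM. *Gpd1* stood furthest apart among those with at least 1 TPM outside iBAT, its next highest level being 16.6 TPM in diaphragm.

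Outside iBAT, 8 members stayed under a mean of 1 TPM in all 12 groups: *Adipoq*, *Retn* (resistin), *Cfd*, *Lep*, *Pck1*, *Aqp7*, *Plin1* and *Cidec*. *Plin1* coats the droplets of mature adipocytes, *Cidec* fuses them, *Aqp7* lets glycerol out of the cell and *Pck1* makes glycerol precursors from pyruvate. In wt iBAT *Plin1* had 562 TPM and *Cidec* 826 TPM, against 0.0903 and 0.0929 TPM in wt somites at E12.5, where the 4 libraries together held 12 and 5 counts. All 4 adipokines are in this group, and no gene of fatty acid synthesis is.

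The 8 genes as a group had fewer CG dinucleotides around their start than the median gene, with *Lep* (ratio 0.585) as the exception, and the difference was not tested. In windows of 300 bases (250 before and 50 after the start of the canonical transcript in the deposited annotation, read from GRCm39), the median ratio of observed to expected CG dinucleotides was 0.0904 for the 8 genes, 0.525 for the 31 others and 0.555 for all 21761 protein-coding genes. The median GC content of 54.3%, 60.7% and 56% differed less. The CG ratios of the 31 others ran from 0 for *Fabp4* to 1.09 for *Fasn*, with *Lipe* at 0.0548 and *Cd36* at 0.066, so low ratios were not confined to the 8 genes. The octamer TTGCNNAA, a core of C/EBP binding sites, was present on either strand in 3 of the 8 windows (*Lep*, *Plin1*, *Cidec*), in 2 of the 31 others (*Lpl*, *Gpam*) and in 10.2% of all windows. The nonamer TCACNCCAC, a form of the sterol regulatory element, was present in *Acaca* and *Mlxipl*, 2 of 39 windows against 1.24% of all. A match is only a run of letters, and no binding was measured here. Only 1 start per gene was examined. The annotated genes of *Acaca* and *Mlxipl* begin before their windows, at chr11:84020498 and chr5:135118744, and which start each tissue uses was not tested.

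The 250 bases before the start are shown for *Plin1* (chr7:79382536-79382785, minus strand) and *Cidec* (chr6:113411726-113411975, minus strand) as members nearly silent outside iBAT, with TTGCNNAA in capitals, and for *Adipoq* (chr16:22965036-22965285, plus strand), with CCAAT boxes or their complements in capitals. *Fasn* (chr11:120715374-120715623, minus strand) and *Acaca* (chr11:84063698-84063947, plus strand) stand for members expressed in every context, with CCAAT boxes in *Fasn*, and TCACNCCAC and the E-box CACGTG in *Acaca*, in capitals. CCAAT was found in 14 of 39 windows and in 38.8% of all, and CACGTG in 4 of 39 and in 7.69% of all.
Plin1: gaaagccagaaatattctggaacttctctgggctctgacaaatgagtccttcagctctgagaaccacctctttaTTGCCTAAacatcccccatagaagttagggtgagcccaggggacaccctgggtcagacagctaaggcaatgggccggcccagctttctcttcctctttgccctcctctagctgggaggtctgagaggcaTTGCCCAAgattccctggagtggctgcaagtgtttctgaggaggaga
Cidec: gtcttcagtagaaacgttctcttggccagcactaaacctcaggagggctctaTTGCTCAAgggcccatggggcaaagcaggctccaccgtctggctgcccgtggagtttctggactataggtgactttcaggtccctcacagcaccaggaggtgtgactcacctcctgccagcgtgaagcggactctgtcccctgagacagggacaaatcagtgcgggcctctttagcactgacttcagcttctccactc
Adipoq: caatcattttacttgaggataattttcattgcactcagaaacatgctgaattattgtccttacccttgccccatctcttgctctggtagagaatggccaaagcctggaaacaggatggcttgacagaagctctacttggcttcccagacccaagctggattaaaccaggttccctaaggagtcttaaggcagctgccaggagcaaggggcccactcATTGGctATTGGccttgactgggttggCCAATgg
Fasn: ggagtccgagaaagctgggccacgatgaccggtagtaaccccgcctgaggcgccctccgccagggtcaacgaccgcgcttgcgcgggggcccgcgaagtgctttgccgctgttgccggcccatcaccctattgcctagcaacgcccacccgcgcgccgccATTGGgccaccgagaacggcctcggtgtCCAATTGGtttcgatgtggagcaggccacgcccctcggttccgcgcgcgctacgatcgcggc
Acaca: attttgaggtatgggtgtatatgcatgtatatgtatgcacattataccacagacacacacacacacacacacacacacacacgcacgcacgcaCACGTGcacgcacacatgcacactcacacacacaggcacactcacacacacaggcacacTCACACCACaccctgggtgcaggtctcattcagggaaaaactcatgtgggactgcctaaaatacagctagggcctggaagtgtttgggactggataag
*Adipoq* has no CG dinucleotide in its window, while the *Fasn* window has a ratio of 1.09. The matches in *Plin1* begin 176 and 47 bases before the start, that in *Cidec* 198 bases before it, and the sterol element of *Acaca* 98 bases before it.

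Between genotypes, no difference of a member was detected in iBAT. With the quasi-likelihood test of edgeR, a call being an adjusted p under 0.05 and at least 1.5-fold, 0 of 39 members were called, against 0.00657% of all genes, which is *Hoxa5* alone. No member reached an unadjusted p under 0.05, against 2.47% of all genes, and DESeq2 called none either, against 0.0263% of all genes. The median log2 fold change of *Hoxa5*-/- over wt was 0.03 over the members and 0.00 over all genes tested. It lay between -0.27 for *Cfd* and 0.29 for *Dgat2*, which adds the last fatty acid to triglyceride, and 24 members were above and 15 below 0. No member had libraries of one genotype all above those of the other, which 0.316% of all genes did. Skeletal muscle markers had a median log2 change of -0.72, with 8 of 8 below 0, and erythroid markers one of 0.32, with 6 of 6 above 0. Brown adipocyte markers had one of 0.08, with 6 of 8 above 0. No marker of these lists was called, and their part in the values of the members was not tested.

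The size of difference that these 10 libraries leave possible varied among the genes. The 95% interval of the log2 fold change had a median half-width of 0.26, with 0.125 for the narrowest and 0.936 for the widest. For 31 of 39 members the whole interval lay within 1.5-fold in either direction, and for 38 within 2-fold, with *Lep* as the exception. *Adipoq* had an interval from -0.16 to 0.14 and *Cebpa*, a master regulator of adipocyte differentiation, from -0.19 to 0.14, while *Scd1*, the main desaturase, had one from -0.82 to 0.88 and *Fasn* one from -0.49 to 0.96. A rise of *Scd1* or *Fasn* by 1.5-fold, and a fall of *Scd1* by as much, therefore lie within their intervals. The intervals are not adjusted for the number of genes tested, whereas the calls are, so they do not give the smallest change that would have been called.

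**Figure D2:**
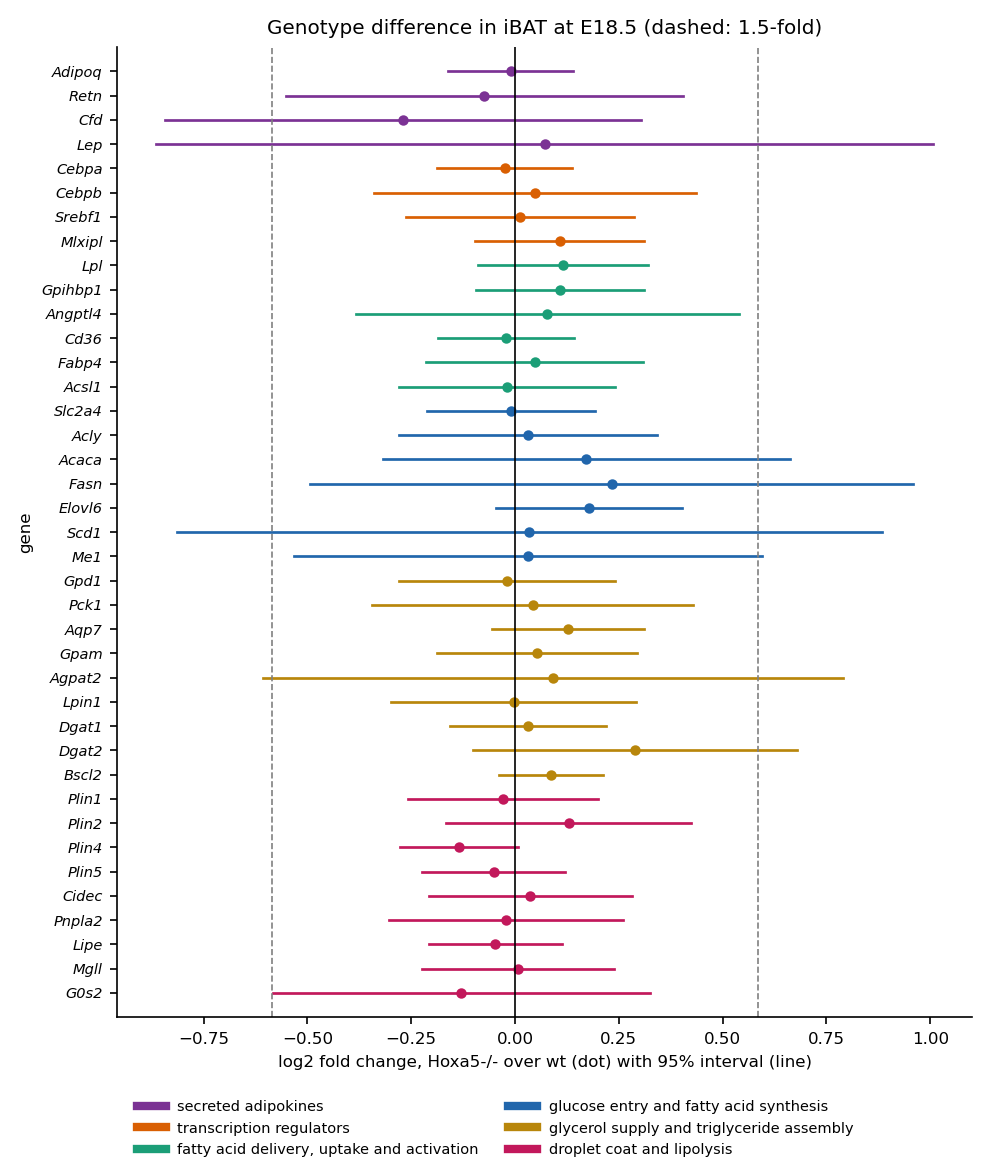
Log2 fold change of *Hoxa5*-/- over wt in iBAT at E18.5 (dots) with its 95% interval (lines) for each of the 39 genes, coloured by role, with 1.5-fold in either direction as dashed lines. All intervals cross 0, and the widest belong to *Lep*, *Scd1*, *Fasn* and *Agpat2*.

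The most abundant members had like levels in both genotypes. *Fabp4* had 6338, 6551, 6748, 6268 and 5385 TPM in wt and 5802, 6028, 6990, 6132 and 6460 TPM in *Hoxa5*-/- libraries, and *Gpd1* had 3937, 5390, 4869, 5936 and 4865 TPM against 4868, 5051, 4657, 4398 and 5071 TPM. The lowest library of *Fabp4* and both the lowest and the highest of *Gpd1* were wt. The log2 changes were 0.05 (SE 0.122) and -0.02 (SE 0.121), each with an edgeR adjusted p of 1. *Pnpla2* had 1905, 1644, 1905, 1860 and 1841 TPM in wt and 2131, 1285, 1947, 1795 and 1549 TPM in *Hoxa5*-/- libraries, the latter being the more spread, with a log2 change of -0.02 (SE 0.131, edgeR adjusted p = 1).

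*Cfd* and *Lep* were uneven within each genotype, and *Retn* only among *Hoxa5*-/- libraries. *Cfd* had 1784, 986, 1187, 988 and 2198 TPM in wt and 1573, 565, 1488, 1176 and 803 TPM in *Hoxa5*-/- libraries. *Retn* had 75.8, 71.8, 82.9, 77.8 and 80.7 TPM against 78.7, 60.4, 124, 45.2 and 48.5 TPM. *Lep* had 3.74, 14, 6.71, 9.03 and 2.58 TPM against 3.9, 12, 10.49, 3.42 and 7.96 TPM. Wt libraries of *Retn* lay within the range of the *Hoxa5*-/- ones, while *Cfd* and *Lep* were widely spread in both. The log2 changes were -0.27 (SE 0.267), -0.07 (SE 0.223) and 0.07 (SE 0.436), each with an edgeR adjusted p of 1.

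Members with steady levels had narrow ranges in both genotypes. *Adipoq* had 1862, 1821, 1798, 1746 and 1808 TPM in wt and 1704, 1850, 1725, 1704 and 1720 TPM in *Hoxa5*-/- libraries. The wt libraries were mostly the higher ones, but 1 *Hoxa5*-/- library was above 4 of 5 wt libraries, and the fitted log2 change on TMM-scaled counts was -0.01 (SE 0.07, edgeR adjusted p = 1). *Bscl2*, the seipin of droplet formation, had 77.6, 75.5, 70.3, 76.8 and 78.8 TPM in wt and 82.5, 79.1, 76.9, 76.9 and 74.6 TPM in *Hoxa5*-/- libraries. *Plin4*, a perilipin of small droplets, had the lowest unadjusted p of the members, with 193, 188, 199, 197 and 245 TPM in wt and 192, 193, 172, 176 and 166 TPM in *Hoxa5*-/- libraries. Its highest library was wt and its 3 lowest were *Hoxa5*-/-, with overlap in between, and its log2 change was -0.13 (SE 0.07, edgeR adjusted p = 1).

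Among the genes of fatty acid synthesis, *Scd1*, *Fasn*, *Acaca* and *Me1* differed at least 2-fold between libraries, and *Slc2a4*, *Acly* and *Elovl6* did not. *Scd1* had 257, 419, 686, 653 and 155 TPM in wt and 308, 425, 804, 254 and 397 TPM in *Hoxa5*-/- libraries, a ratio of 5.18 from highest to lowest. *Fasn* had 61.3, 120, 154, 191 and 87 TPM in wt and 108, 100, 267, 93.9 and 132 TPM in *Hoxa5*-/- libraries. The ranges of the genotypes overlap widely for these genes, with both ends higher in *Hoxa5*-/-, and replicate 3 of *Hoxa5*-/- is the highest library for both. The log2 change of *Fasn* was 0.23 (SE 0.34, edgeR adjusted p = 1), and without that library it was -0.17. *Acaca* followed with 9.27, 15.9, 17.8, 21 and 13.6 TPM in wt and 16.1, 14.8, 25.9, 12.3 and 16 TPM in *Hoxa5*-/- libraries, and *Agpat2*, an acyltransferase of triglyceride assembly, ran from 185 to 657 TPM within wt alone.

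*Me1* had 24.6, 43.1, 43.8, 45.9 and 19.5 TPM in wt and 33, 35.6, 52.3, 23.2 and 33.5 TPM in *Hoxa5*-/- libraries, with the lowest library in wt and the highest in *Hoxa5*-/-. *Elovl6* was steady in wt, with 17.3, 16.6, 17.7, 16.5 and 18.1 TPM, and more spread in *Hoxa5*-/- libraries, with 24.3, 18.9, 20.3, 16.7 and 14.6 TPM. *G0s2* had 1908, 3495, 3228, 2704 and 2552 TPM in wt and 1534, 2833, 3163, 1983 and 2871 TPM in *Hoxa5*-/- libraries. The regulator *Mlxipl* had 37.1, 33.9, 33.3, 35.5 and 43.7 TPM in wt and 38.2, 31.4, 38.2, 38.4 and 44 TPM in *Hoxa5*-/- libraries, almost the same range.

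Over the 38 members with at least 10 TPM in iBAT, 31.6% differed 2-fold or more between the highest and the lowest of the 10 libraries, against 6.53% of 7502 genes at that level. The median ratio was 1.49 for the members and 1.40 for those genes, so the excess lies in some members and not in all. By role, the median ratio was 2.74 for the 3 adipokines at that level and 2.69 for glucose entry and fatty acid synthesis, against 1.33 for fatty acid delivery and 1.46 for droplet coat and lipolysis. The lowest library was replicate 1 of wt for 11 members, *Fasn*, *Acaca* and *Agpat2* among them, and replicate 5 of wt for 8. The highest was replicate 3 of *Hoxa5*-/- for 10 and replicate 4 of wt for 10. Skeletal muscle markers, a list of 8 genes, summed to 2427 TPM in replicate 1 of wt and to 324 to 931 TPM in the other iBAT libraries, and brown adipocyte markers summed to 11136 to 17046 TPM over the 10 libraries, lowest in replicate 5 of wt. Their part in this spread was not tested.

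**Figure D3:**
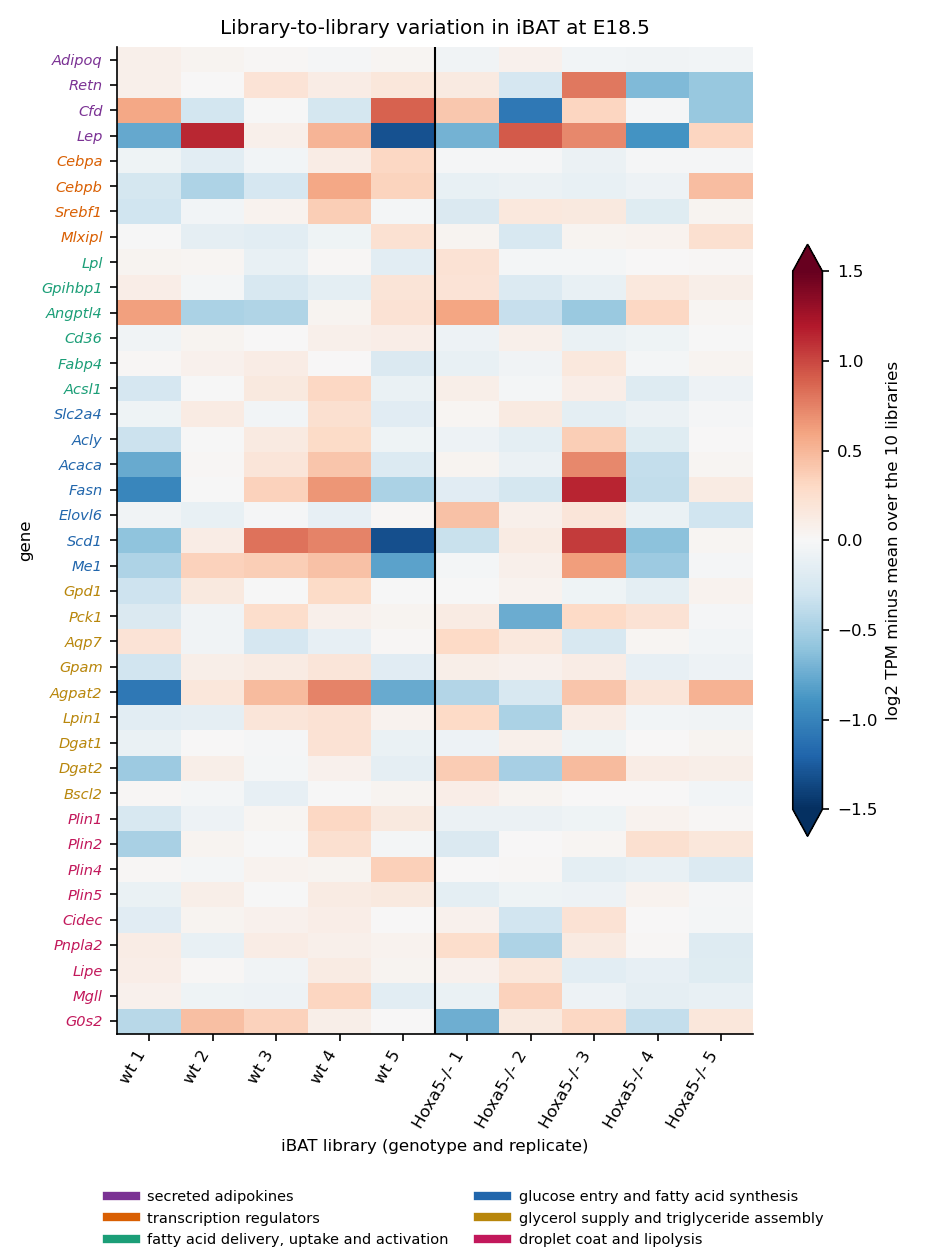
Log2 TPM of each of the 39 genes in each iBAT library at E18.5, minus the gene's mean over the 10 libraries (red above, blue below the mean). Strong colours sit in *Lep*, *Cfd*, *Retn*, *Scd1*, *Fasn*, *Acaca* and *Agpat2* and occur in wt and *Hoxa5*-/- columns alike, while *Adipoq*, *Cd36* and *Bscl2* are nearly white.

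The iBAT sample names start with a number that recurs in both genotypes and whose meaning the labels do not give. Libraries that share it had similar levels of some members. *Angptl4*, an inhibitor of lipoprotein lipase, had 247 and 242 TPM in wt and *Hoxa5*-/- libraries of one number, 116 and 127 TPM of the next, 117 and 109.3 TPM of the third, and 164 to 200 TPM in the 4 libraries of the last. The 4 numbers held 49.6% of the variance of log2 TPM for the median member and genotype held 2.79%, against 41.2% and 4.31% for the median of 7496 genes at 10 TPM, where a split of this kind with no real difference would hold 33.3% and 11.1% on average. With the leading number as a block, edgeR still called no member.

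The wt comparison of iBAT at E18.5 with somites at E12.5, both of 1 sequencing centre, gives the size of the programme in fat against a tissue that holds precursors of it, at another stage. On TMM-scaled counts edgeR called 37 of 39 members higher in iBAT and none lower, where 31% of all genes were called higher and 35.3% lower. The median log2 difference was 6.0 over the members and -0.16 over all genes. On the TPM scale all genes moved down, with a median of -1.04 by limma on log2(TPM + 1), and 34 members were called higher and 2 lower, against 14.4% and 64.4% of all genes. Mitochondrial genes took 24.4% ± 1.95 (SD, n = 5) of TPM in wt iBAT and 4.93% ± 0.430 (SD, n = 4) in wt somites at E12.5, and their part in the gap between the scales was not tested.

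The direction held on both scales for all members outside fatty acid synthesis. *Lpl*, lipoprotein lipase, had 878, 872, 794, 869 and 766 TPM in wt iBAT against 13.3 ± 1.07 TPM (SD, n = 4) in wt somites, and rose by 7.19 on the log2 scale (SE 0.143, edgeR adjusted p = 5.06e-15). *Pnpla2* rose by 8.36 from 12.9 ± 0.648 TPM (SD, n = 4), *Lipe*, hormone-sensitive lipase, by 7.66 from 5.5 ± 0.598 TPM (SD, n = 4) and *Cebpa* by 6.72 from 17.5 ± 2.13 TPM (SD, n = 4). *Plin2*, the perilipin of many cell types, rose least among the droplet genes, by 1.91, from 69.7 to 113 TPM. The wt iBAT libraries held 729, 840.5, 857, 879 and 826 TPM of *Cidec* and 468, 526, 653, 572 and 561 TPM of *Pck1*, both of which were near 0 in somites. For *Fabp4* the levels were 2.82 ± 0.239 TPM (SD, n = 4) in somites and 6258 ± 523 TPM (SD, n = 5) in iBAT.

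Fatty acid synthesis depended on the scale. *Elovl6* was below somites on both, with 17.2 ± 0.693 TPM in iBAT and 45.5 ± 3.9 TPM in somites, a log2 difference of -0.19 on TMM-scaled counts, under the 1.5-fold limit, and of -1.35 by limma on log2(TPM + 1) (adjusted p = 7.87e-09). *Acly* was higher by 1.21 on TMM-scaled counts but had 216 and 217 TPM, and *Fasn* was higher by 1.0 but had 123 ± 51.6 and 144 ± 8.44 TPM. *Acaca* had a difference of 0.53 on TMM-scaled counts, not called, and was lower by limma on log2(TPM + 1), at -0.70 (adjusted p = 0.0053). It was called higher, at 0.60 to 0.68, without replicate 4 of the somites or without replicate 1 or 5 of iBAT. *Scd1* was higher on both scales, by 4.89 on TMM-scaled counts.

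Among 46 other genes of lipid metabolism, 33 were called higher in iBAT and 6 lower on TMM-scaled counts, where 31% and 35.3% of all genes were. *Thrsp*, a lipogenic protein, and *Cidea*, a droplet protein of brown fat, had 2147 and 4565 TPM in iBAT against 0.771 and 1.55 TPM in somites, and *Pparg*, the central regulator of fat cell formation, had 323 against 3.17 TPM. The genes called lower were *Srebf2*, a regulator of sterol synthesis, the desaturases *Fads1* and *Fads2*, and *Fitm1*, *Lpin2* and *Mogat2*. No gene of this list was called between genotypes in any context, and in iBAT none of the 45 tested had an unadjusted p under 0.05.

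From E10.5 to E12.5 in wt somites, 10 members were called higher and 3 lower of 29 tested, where edgeR called 24.1% of all genes higher and 18.4% lower. *Cebpa* had 1.19, 1.48, 2.32 and 1.4 TPM at E10.5 and 16, 20.6, 16.2 and 17.3 TPM at E12.5, with all later libraries far above the earlier ones, and rose by 3.39 on the log2 scale (SE 0.182, edgeR adjusted p = 2.86e-09). *Gpihbp1* had 0.394, 0.344, 0.107 and 0.289 TPM at E10.5 and 4.25, 6.39, 4.27 and 4.28 TPM at E12.5. *Fabp4*, *Gpihbp1*, the capillary anchor of lipoprotein lipase, *Mgll*, which cleaves monoglycerides, *G0s2*, *Me1*, *Cebpb*, *Angptl4*, *Agpat2* and *Acsl1*, which activates fatty acids, rose by 1.10 to 4.01. *Fabp4* had 0.14, 0.196, 0.0909 and 0.23 TPM at E10.5 and 2.59, 3.14, 2.68 and 2.86 TPM at E12.5, low at both stages. *Acly* had 260, 308, 406 and 322 TPM at E10.5 and 203, 203, 230 and 231 TPM at E12.5, and *Bscl2* had 19.4, 16.1, 18.7 and 19.7 TPM and then 13.8, 12.8, 12.48 and 11.3 TPM. *Scd1*, *Acly* and *Bscl2* fell by 0.75, 0.64 and 0.62, and by limma on log2(TPM + 1) 10 members were called higher and only *Scd1* lower, against 24.2% and 14.8% of all genes. *Acly* missed the 1.5-fold limit without replicate 3 of wt at E10.5, at -0.55, and *Bscl2* without replicate 1 at E10.5 or replicate 4 at E12.5, at -0.57 and -0.58.

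In somites at E10.5, all 7 genes of glucose entry and fatty acid synthesis had the higher fitted level in *Hoxa5*-/- libraries, though none was called. Roles with all tested members on 1 side also occurred elsewhere, such as droplet coat and lipolysis in trachea (7 of 7 lower) and triglyceride assembly in lung at E15.5 (7 of 7 lower), with none at an unadjusted p under 0.05. edgeR called 0 of 27 members, against 0.0215% of all genes, and DESeq2 called none, against 0.0969%. An unadjusted p under 0.05 with the higher level in *Hoxa5*-/- libraries was found for 6 members and 7.48% of all genes, and one with the lower level for no member and 5.23% of all genes. They were *Scd1*, *Fasn*, *Acaca*, *Acly* and *Elovl6* of the 7 genes of glucose entry and fatty acid synthesis, and *Dgat2*. The median log2 fold change was 0.30 over these 7 genes, 0.16 over the 27 members and -0.01 over all genes.

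*Scd1* had 44.9, 51.2, 68.9 and 59.7 TPM in wt and 67.7, 73.4 and 82.4 TPM in *Hoxa5*-/- somites at E10.5. The *Hoxa5*-/- libraries were the higher ones apart from replicate 3 of wt, which lies within their range, and the log2 change was 0.37 (SE 0.12, edgeR adjusted p = 0.391). *Fasn* had 115, 146, 211 and 142 TPM in wt and 188, 200 and 225 TPM in *Hoxa5*-/- libraries, and *Acly* 260, 308, 406 and 322 TPM against 395, 395 and 404 TPM. Again 1 wt library, replicate 3, reached the *Hoxa5*-/- values. *Dgat2* alone did not overlap, with 6.48, 8.03, 12.1 and 10.3 TPM against 12.47, 12.2 and 13.1 TPM, as 3.65% of all genes did in this direction, and its log2 change was 0.41 (SE 0.17, edgeR adjusted p = 0.391).

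Without replicate 3 of wt, *Me1* was called higher in *Hoxa5*-/- somites at E10.5, by 0.65 on the log2 scale (edgeR adjusted p = 0.0272), and the other members were not called, while the share of all genes called went from 0.0215% to 2.07%. At E12.5 the same genes had like levels in both genotypes, for instance 31.7, 34.9, 35.8 and 36.8 TPM of *Scd1* in wt and 35.4, 39, 34.8 and 34.3 TPM in *Hoxa5*-/- libraries. The genotype change at E12.5 minus that at E10.5 was -0.48 for *Fasn* (SE 0.172) and -0.32 for *Scd1* (SE 0.137), and the test of this difference called 0 of 29 members, against 0.0147% of all genes (edgeR adjusted p of at least 0.327). Without replicate 3 of wt at E10.5 it called 6 members, *Fasn*, *Acaca*, *Acly*, *Scd1*, *Me1* and *Dgat2*, and 12.6% of all genes. Among the 46 other lipid genes, 7 had a higher and 3 a lower mean in *Hoxa5*-/- somites at E10.5 with an edgeR unadjusted p under 0.05. Of all genes tested, 7.48% had such a p with a higher and 5.23% with a lower level. Skeletal muscle markers had a median change of 0.34 in the same comparison, with 6 of 7 tested above 0, and erythroid markers one of -0.43, with 6 of 6 below 0, and their part was not tested.

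**Figure D4:**
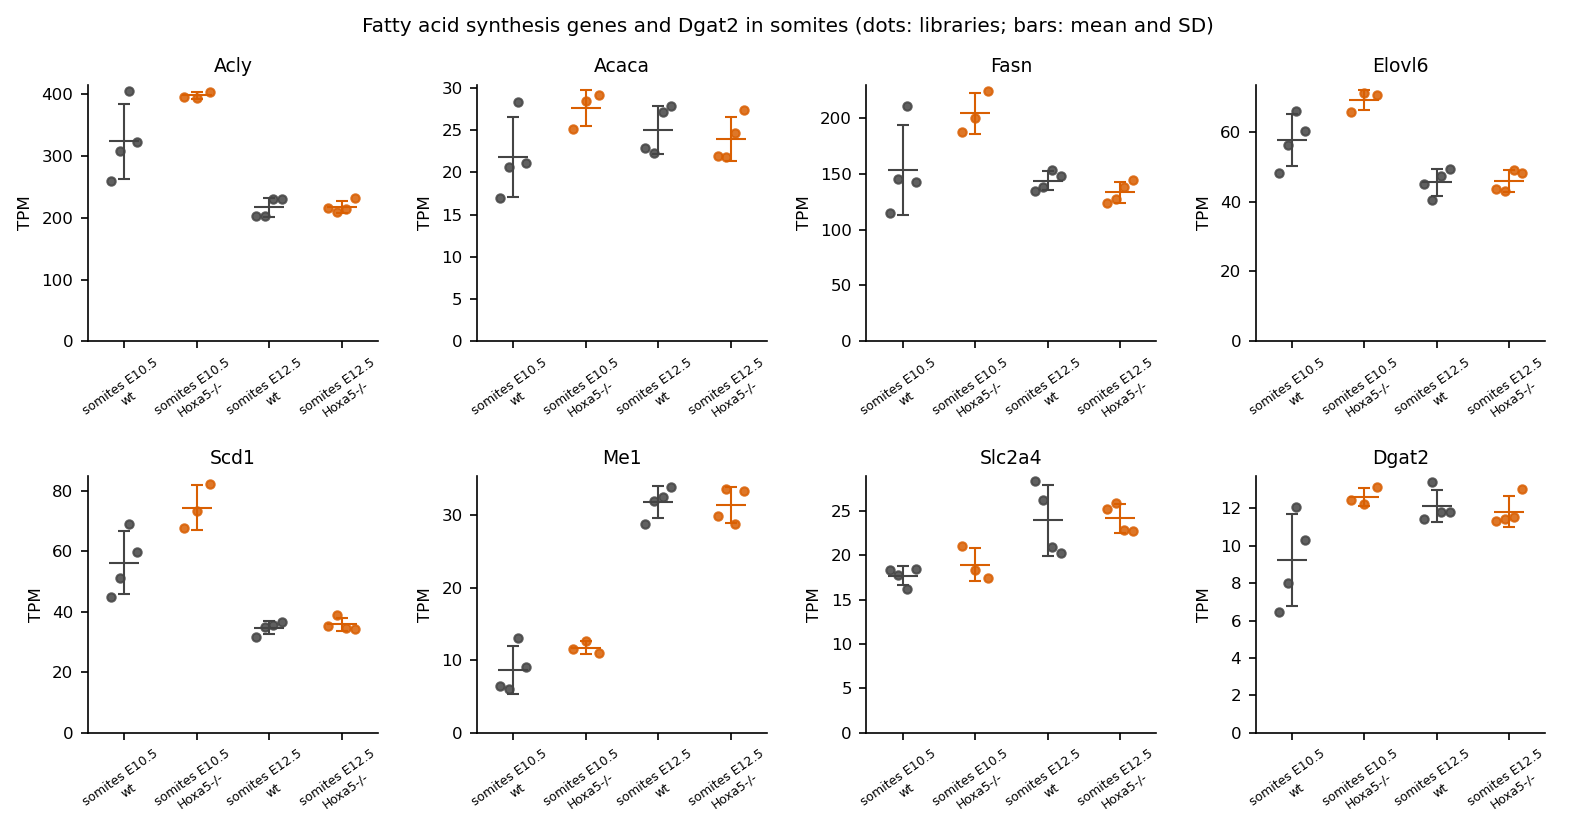
TPM in each library (dots) with mean and SD (bars) of 8 genes of fatty acid synthesis, glucose entry and triglyceride assembly in somites at E10.5 and E12.5, wt in grey and *Hoxa5*-/- in orange. At E10.5 the *Hoxa5*-/- dots of *Scd1*, *Fasn*, *Acly*, *Acaca*, *Elovl6* and *Dgat2* lie above at least 3 of the 4 wt dots, and at E12.5 the genotypes overlap.

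At E12.5 in somites, edgeR called 0 of 29 members, against 0.00529% of all genes, and DESeq2 called none, against 0.0106%. *Mlxipl*, a glucose-responsive lipogenic regulator, was the 1 member with an unadjusted p under 0.05, and lower in *Hoxa5*-/- libraries. Of all genes, 1.43% had such a p with a higher and 1.81% with a lower level. It had 1.67, 1.37, 1.25 and 0.962 TPM in wt and 0.855, 1.15, 0.88 and 0.811 TPM in *Hoxa5*-/- libraries, with overlap between them (log2 change -0.50, SE 0.201, edgeR adjusted p = 0.999).

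In wt lung from E12.5 to E15.5, 14 members were called higher and 2 lower of 28 tested, where edgeR called 15.4% of all genes higher and 9.15% lower. *G0s2* rose by 3.25 on the log2 scale, *Cebpa* by 2.81, *Gpihbp1* by 2.75 and *Cd36* by 2.30. Of the 7 genes of glucose entry and fatty acid synthesis only *Scd1* and *Elovl6* were called, both lower, while *Me1* had a log2 difference of 0.51, under the 1.5-fold limit. *Scd1* fell from 26.4 ± 8.15 to 9.55 ± 0.985 TPM (SD, n = 4 each), by 1.51 on the log2 scale (SE 0.192, edgeR adjusted p = 0.000122), and *Elovl6* from 68.1 ± 5.83 to 30.8 ± 7.47 TPM, by 1.18. For *Scd1* the libraries held 38.1, 25.2, 19.6 and 22.8 TPM at E12.5 and 10.6, 8.83, 10.2 and 8.6 TPM at E15.5 with no overlap, and for *Elovl6* 73.7, 66.1, 71.7 and 60.8 TPM and then 36.5, 33.6, 19.8 and 33.3 TPM. Replicate 3 of wt at E15.5 stood apart with 388 TPM of *G0s2* and 118 TPM of *Cebpa*, against 102 to 146 and 46.4 to 54.6 TPM in the others. Markers of distal lung epithelium summed to 8832 TPM there and to 2974 to 5938 TPM in the others. Without that library *G0s2* rose by 2.63 and *Cebpa* by 2.39. The *Hoxa5*-/- library of the same number at E15.5 also stood apart, with 323 TPM of *G0s2* and 107 TPM of *Cebpa*. The others of its genotype had 62.7 to 103 and 25.8 to 51.2 TPM.

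Between genotypes in lung at E12.5, edgeR called 0 of 28 members, against 0.0798% of all genes, while DESeq2 called *Cebpb* alone, against 0.462% of all genes. *Cebpb*, a regulator of early adipogenesis that many tissues express, had 33.5, 33.1, 40.9 and 52.2 TPM in wt and 27.9, 17.7, 26.7 and 23.7 TPM in *Hoxa5*-/- libraries. All *Hoxa5*-/- libraries lay below all wt libraries, as for 1.67% of all genes, and the log2 change was -0.71 (SE 0.185; edgeR adjusted p = 0.315, DESeq2 adjusted p = 0.025). *Lipe*, *Mgll*, *Agpat2* and *Slc2a4*, the insulin-responsive glucose transporter, also had an unadjusted p under 0.05 and lower means in *Hoxa5*-/- libraries, with log2 changes of -0.35, -0.43, -0.20 and -0.15 and overlap between genotypes. An unadjusted p under 0.05 was thus found with a lower level for 5 members and 3.56% of all genes, and with a higher level for no member and 4.46% of all genes. The 4 genes other than *Cebpb* had their lowest level in replicate 1 of *Hoxa5*-/-. Mitochondrial genes took 1.15% of TPM there against 5.34% to 6.80% in the other 7 libraries, and erythroid markers summed to 23404 TPM against 2473 to 4344 TPM. Without that library the log2 changes were -0.33, -0.40, -0.19 and -0.14, and that of *Cebpb* was -0.83, none of them called.

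At E15.5 in lung, edgeR called 0 of 28 members, against 0.124% of all genes, and DESeq2 called none, against 0.467%. An unadjusted p under 0.05 was found with a lower level for 2 members that act at the capillary wall and the cell surface and for 3.59% of all genes, and with a higher level for no member and 2.72% of all genes. *Gpihbp1* had 9.59, 11.9, 15.52 and 7.6 TPM in wt and 5.75, 5.36, 8.88 and 3.15 TPM in *Hoxa5*-/- libraries, and *Cd36* had 13.7, 19.6, 36.2 and 11.7 TPM against 6.16, 4.7, 15.6 and 6.31 TPM. For both genes 1 *Hoxa5*-/- library, replicate 3, lay among the wt values and the others lay below them. The log2 changes were -0.88 (SE 0.259, edgeR adjusted p = 0.471) and -1.21 (SE 0.439, edgeR adjusted p = 0.663). Markers of blood endothelium, which also expresses both genes, had a median change of -0.45 with 6 of 6 below 0 and none called. Their sum was 859 to 1057 TPM in wt and 465 to 802 TPM in *Hoxa5*-/- libraries, without overlap, and their part in these values was not tested. Replicate 4 of *Hoxa5*-/- had the lowest of these sums and the lowest share of TPM in the 39 genes, 0.0764% against 0.118% to 0.172% in the other 7 libraries. By the paper's read statistics it also had the lowest shares of reads mapped and of alignments assigned to genes among the libraries of lung at E15.5. Without that library the log2 changes were -0.76 for *Gpihbp1* and -1.22 for *Cd36*, not called. *Lpl*, which works with *Gpihbp1*, had 14.7, 15.7, 14.1 and 14.6 TPM against 13.5, 13.6, 11.4 and 10.6 TPM, without overlap as for 2.47% of all genes, and a log2 change of -0.16 (SE 0.0926, edgeR adjusted p = 0.875).

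In diaphragm, a sheet of skeletal muscle and connective tissue, edgeR called 0 of 31 members, against 0.594% of all genes, and DESeq2 called none at 1.5-fold, against 2.25%. An unadjusted p under 0.05 was found with a higher level for 1 member and 4.87% of all genes, and with a lower level for 6 members and 8.16% of all genes. *Elovl6* had 28.2, 33.2, 36.0 and 34.7 TPM in wt and 39.9, 44.2, 47.6 and 36.1 TPM in *Hoxa5*-/- libraries. Every *Hoxa5*-/- library was above every wt library, though the nearest pair was close, as for 2.25% of all genes, and the log2 change was 0.34 (SE 0.0904; edgeR adjusted p = 0.16, DESeq2 adjusted p = 0.0246). The other 6 had the lower mean in *Hoxa5*-/- libraries and overlapped between genotypes. They were *Plin4*, *Plin5*, *Mgll* and *Lipe* of the droplet and lipolysis role, *Cebpb* and *Dgat1*, with log2 changes from -1.35 to -0.17.

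*Plin4* and *Plin5*, perilipins of muscle and fat, were at the limit of what these libraries measure in diaphragm, with 16 to 70 and 10 to 37 counts per library. *Plin4* had 1.70, 0.748, 0.495 and 1.08 TPM in wt and 0.494, 0.237, 0.262 and 0.590 TPM in *Hoxa5*-/- libraries (log2 change -1.35, SE 0.457, edgeR adjusted p = 0.254). *Cebpb* had 22.2, 26.9, 33.2 and 13.1 TPM in wt and 14.5, 13.3, 13.6 and 16 TPM in *Hoxa5*-/- libraries. Its *Hoxa5*-/- values were close together and below all wt values but that of replicate 4, without which *Cebpb* was called, at -0.93 (edgeR adjusted p = 0.0411), with 0.769% of all genes. Skeletal muscle markers summed to 20458 to 41872 TPM in wt and to 16612 to 30046 TPM in *Hoxa5*-/- diaphragm and had a median change of -0.36. Hepatocyte markers ran from 350 to 10614 TPM over these 8 libraries, and the part of either in these values was not tested.

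**Figure D5:**
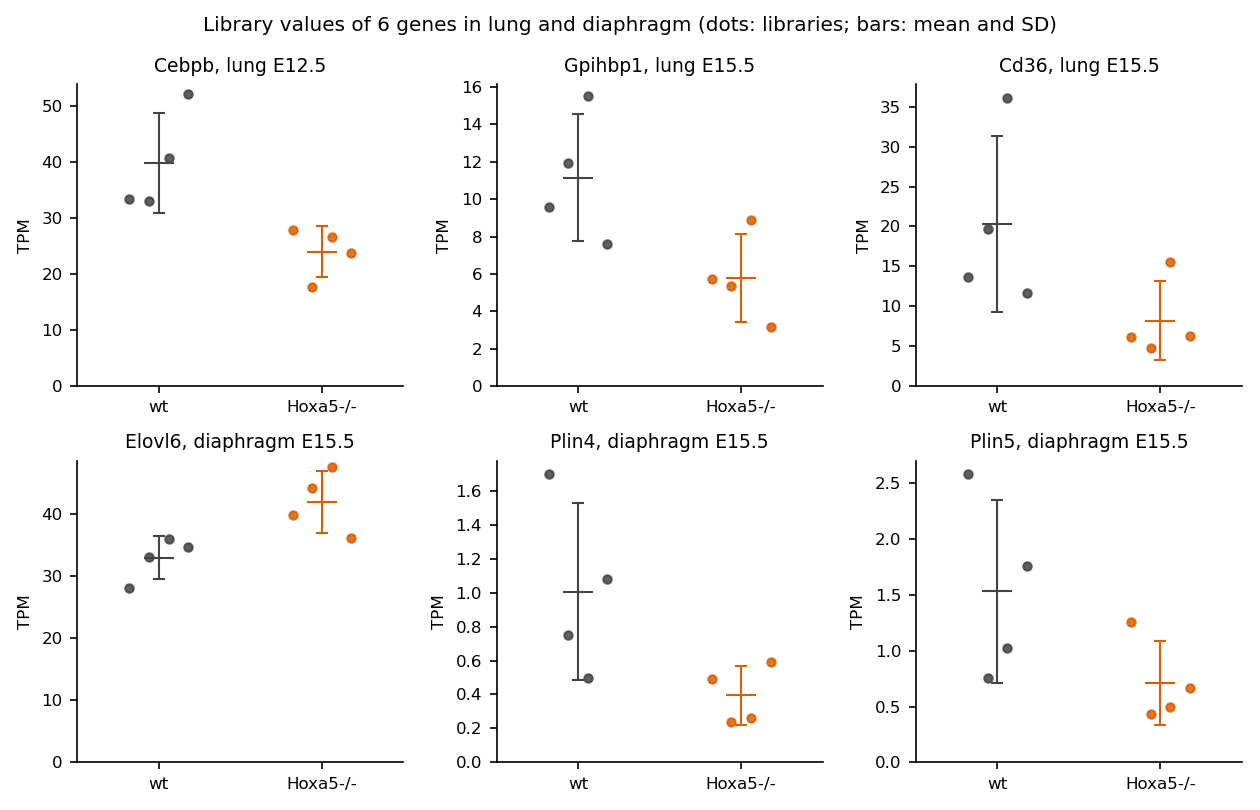
TPM in each library (dots) with mean and SD (bars) of *Cebpb* in lung at E12.5, *Gpihbp1* and *Cd36* in lung at E15.5, and *Elovl6*, *Plin4* and *Plin5* in diaphragm, wt in grey and *Hoxa5*-/- in orange. The genotypes do not overlap for *Cebpb* and *Elovl6* and overlap for the other 4 genes.

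In trachea, edgeR called 0 of 31 members, against 0.0156% of all genes, and DESeq2 called none, against 0.271%. *Fabp4* and *Lpl* had an unadjusted p under 0.05 with a lower level, as 3.64% of all genes did, and *Mlxipl* with a higher level, as 3.06% did. *Fabp4* had 24.5, 32.1, 33.3 and 21.3 TPM in wt and 20.5, 19.5, 23.8 and 15.4 TPM in *Hoxa5*-/- libraries, *Lpl* 14.7, 24.9, 15 and 17.5 against 12, 14.4, 15 and 10.4 TPM. Both overlapped between genotypes, with log2 changes of -0.50 (SE 0.184) and -0.49 (SE 0.194) and edgeR adjusted p = 0.721 and 0.736. Skeletal muscle markers summed to 4568 TPM in replicate 3 of *Hoxa5*-/- trachea and to at most 1221 TPM in the other 7 libraries.

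The samples of the 3 tissues of E15.5 differed in which steps they expressed in wt embryos. Hepatocyte markers summed to 1525 to 8620 TPM in wt diaphragm, 4.24 to 42.7 TPM in wt lung and 7.2 to 51.3 TPM in wt trachea. Brown adipocyte markers summed to 194 to 403, 31.5 to 40.3 and 66.2 to 90.6 TPM in the same order. The part of either in the differences between these tissues was not tested. Against lung, diaphragm had 10 members called higher and 9 lower of 31 tested, where 20.9% of all genes were called higher and 15.6% lower, and on the TPM scale, with a median of all genes of -0.28, 8 higher and 12 lower, against 14.8% and 25.6% of all genes. The higher ones include 5 of 6 genes of fatty acid delivery, uptake and activation. *Fabp4* was at 47 ± 6.93 TPM in diaphragm and 0.91 ± 0.548 TPM in lung (SD, n = 4 each), *Cd36* at 96.4 ± 17.7 and 20.3 ± 11.1 TPM, and *Lpl* at 68.1 ± 8.96 and 14.8 ± 0.698 TPM, with log2 differences of 6.03, 2.56 and 2.52. *Cebpa* had 46.4, 54.6, 118 and 50.6 TPM in lung and 8.43, 12.2, 23.1 and 6.47 TPM in diaphragm, *Cebpb* 77, 72.6, 109.3 and 80.8 against 22.2, 26.9, 33.2 and 13.1 TPM. Both C/EBP genes, *Angptl4*, *Plin2*, *Pnpla2*, *Fasn*, *Me1*, *Gpam* and *Agpat2* were called lower in diaphragm on both scales.

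Against trachea, diaphragm had 8 members called higher and 4 lower of 31, where 14.1% and 18.4% of all genes were, and on the TPM scale, with a median of all genes of -0.29, 7 higher and 9 lower, against 9.27% and 25.6% of all genes. *Lpl* had 76.9, 64, 57.5 and 74.1 TPM in diaphragm and 14.7, 24.9, 15 and 17.5 TPM in trachea, and *G0s2* had 142, 136, 144 and 127 TPM against 38.6, 47.6, 44.2 and 29.3 TPM, neither with overlap. *Lpl*, *G0s2* and *Cd36* were higher by 2.22, 2.07 and 1.69, and *Me1* was lower by 2.24. *Me1* had 80, 72.6, 98.4 and 70.4 TPM in trachea, 10.8, 17.7, 13.5 and 13.6 TPM in diaphragm and 27.8, 29, 32.3 and 26.6 TPM in lung, 3 ranges without overlap (edgeR adjusted p = 8.41e-06 for diaphragm and 1.26e-05 for lung, each against trachea). Lung against trachea had 7 members higher and 4 lower of 31, where 10.1% and 20.1% of all genes were. With the replicate number as a block, which pairs these libraries, 6 members were higher and 7 lower, against 10.48% and 20.8% of all genes. *Fabp4*, *Acsl1*, *Plin5* and *Me1* were lower in lung in both fits, by 4.92, 1.82, 1.67 and 1.44 without the block. *Acsl1* had 10.7, 11.2, 10.8 and 8.1 TPM in lung and 42.9, 34.9, 39.9 and 30.6 TPM in trachea, and *Plin2* 85.8, 85.6, 108.5 and 84.8 against 40.9, 36.7, 43.2 and 40.3 TPM, both without overlap. *G0s2*, *Plin2* and *Mlxipl* were among the higher ones, by 2.27, 1.21 and 1.16.

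The genotype change itself was compared between contexts of 1 sequencing centre in 6 pairs, and edgeR called no member in any of them. Of all genes it called none in iBAT minus somites at E12.5, 0.0267% in lung at E15.5 minus E12.5, 0.00502% in lung minus trachea, 0.73% in diaphragm minus lung at E15.5 and 0.439% in diaphragm minus trachea. Those with the most members at an unadjusted p under 0.05 were somites at E12.5 minus E10.5, with 7 of 29 against 14.3% of all genes, and diaphragm minus lung at E15.5, with 4 of 31 against 8.46%. In iBAT minus somites at E12.5, *Mlxipl* alone of 39 had such a p (log2 difference 0.62, SE 0.207, edgeR adjusted p = 1), against 2.57% of all genes. In diaphragm minus trachea, DESeq2 called *Elovl6* (log2 difference 0.42, DESeq2 adjusted p = 0.0282), against 1.86% of all genes, for which edgeR gave an adjusted p of 0.123.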

How the data were processed

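RNA of 57 libraries was sequenced after poly(A) selection. By the authors, reads were trimmed (Trim Galore 0.6.5), aligned to GRCm39 (STAR 2.7.9a) and counted per gene (featureCounts 2.0.3), on an annotation curated for *Hox* genes, whose strand setting is not given in the sources used here. The raw counts and the TPM values were taken as deposited by the authors, in 1 table set for somites and iBAT and another for the other tissues, and no test crosses these sets.

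Groups came from the sample labels. Genes with a mean of at least 1 TPM in either group were tested on counts by edgeR 4.0.16 in R 4.3.3 (quasi-likelihood fit), with TMM scaling and Benjamini-Hochberg adjustment over all genes tested, in 7 genotype comparisons, 6 wt comparisons and 6 tests of the difference between genotype changes. A call was an adjusted p under 0.05 with at least 1.5-fold, without the fold limit for the last kind. The steps were tested on simulated data. Alternatives were DESeq2 1.42.0, RLE scaling, a filter at 10 counts, no fold limit, limma 3.58.1 on log2(TPM + 1) for wt comparisons, a replicate block and leaving out each library. All members are described by role. Library values were set for those called between genotypes, those with an unadjusted p under 0.05 in iBAT (none of either kind), the 5 highest and 5 lowest in wt iBAT and the 3 largest rises and falls of each wt comparison, of which most are printed, and further members were chosen after their values were seen. The 39 members, the 46 other lipid genes and the 10 marker lists were chosen with earlier results of these data known. Correlations of same-numbered libraries, as deviations from group means, exceeded 0.1 in all 4 pairs only for wt lung and trachea at E15.5 (0.107 to 0.451). Promoter windows were read from GRCm39.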

Additional observations from a re-analysis of the deposited data

Results flagged for a closer look

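Groups of 4 or 5 libraries were searched for a highest or lowest library that stands apart from the rest by Dixon's criterion at the 5% level. The search took 133 groups for the 39 genes and their share of TPM, not every gene in every group, and 14 were found. The list is therefore not complete. *Cebpa* in wt lung at E15.5, with 118 TPM in replicate 3 and 46.4 to 54.6 TPM in the others, is not in it. Chance alone gives such a library in about 1 in 20 groups.

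In *Hoxa5*-/- iBAT, replicate 3 was the highest for 3 genes of fatty acid synthesis, with 275.1 TPM of *Acly* (next 213.1), 25.86 TPM of *Acaca* (next 16.11) and 266.7 TPM of *Fasn* (next 131.7), and the lowest for *Cebpa* with 729.008 TPM (next 766.3). Replicate 2 was the highest for *Adipoq* with 1849.5 TPM (next 1724.88) and for *Mgll* with 211.5 TPM (next 158.2). Replicate 1 was the highest for *Lpl* with 993.2 TPM (next 865.6), and replicate 5 for *Cebpb* with 149.3 TPM (next 102.3). In wt iBAT, replicate 5 was the highest for *Plin4* with 244.7 TPM (next 198.9), and replicate 2 the lowest for *Pnpla2* with 1644 TPM (next 1841).

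Outside iBAT, *Slc2a4* was lowest in replicate 1 of *Hoxa5*-/- lung at E12.5 with 32.13 TPM (next 37.14). Mitochondrial genes took 1.15% of TPM in that library and at least 5.34% in the others of lung at E12.5, and their part in this value was not tested. *Cd36* was highest in replicate 3 of *Hoxa5*-/- lung at E15.5 with 15.57 TPM (next 6.309), and *Lipe* lowest in replicate 2 of wt diaphragm with 3.991 TPM (next 4.534). The 39 genes together took their highest share in wt lung at E15.5 in 1 library, with 0.1716% of TPM (next 0.1294%).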

How the results depend on the processing

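The count of members called between genotypes was 0 in iBAT under every alternative run, the replicate block and a block on the leading number of the sample names included. Elsewhere DESeq2 called 1 member in lung at E12.5 (*Cebpb*) and 1 in the change in diaphragm minus that in trachea (*Elovl6*). The labels do not say what same-numbered libraries of the genotypes share. As deviations from group means they correlated at -0.106 to 0.538 in lung at E15.5 and at -0.0287 to 0.525 in diaphragm. With the replicate number as a block, edgeR called 1 member in lung at E15.5 (*Gpihbp1*, -0.89, adjusted p = 0.0129) and 2 in diaphragm (*Plin4*, -1.32, adjusted p = 0.0352, and *Plin5*, -1.10, adjusted p = 0.0444). In diaphragm minus lung the block was set within each tissue, so it did not pair the tissues, and edgeR called 2 (*Cd36*, 1.21, and *Plin5*, -1.34). Leaving out 1 library gave 0 to 1 members in diaphragm and in somites at E10.5 and 0 to 6 in somites at E12.5 minus E10.5. It moved *Fasn* in iBAT from -0.17 to 0.45 and *G0s2* from -0.25 to 0.0145 around changes that no fit called. Without a fold limit, 20 members were called between somite stages and 19 between diaphragm and trachea. By limma on log2(TPM + 1), iBAT over somites turned to -0.0194 for *Acly*, -0.70 for *Acaca* and -0.34 for *Fasn*. On TMM-scaled counts the members' share in iBAT was 5.04% in wt and 5.21% in *Hoxa5*-/-. The causes were not tested. Of 108 calls of members, all in wt comparisons, 15 were lost under at least 1 alternative, and 34 members and comparisons without a call gained one under at least 1, the removal of the fold limit not counted. Interval widths limit *Lep*, *Scd1*, *Fasn* and *Agpat2* most.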
